A study of Mus musculus with 6 samples.

Results

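Integrins are the receptors by which cells hold on to the extracellular matrix, and focal adhesions are the plaques of cytoplasmic proteins that tie those receptors to actin. The set described here holds 32 mouse genes, 14 integrin subunits and 18 adhesion plaque proteins, chosen by name from the 36760 genes with a transcript in the deposited files. Messenger RNA was sequenced from whole hearts of mice aged 32 weeks. The controls were ApoE-/- littermates, which lack apolipoprotein E, with 3 libraries numbered 1, 2 and 3. The double mutants were ApoE-/- Timp3-/- mice, with 3 libraries numbered 4, 5 and 6, so the loss of apolipoprotein E was common to both groups. TIMP3 is a secreted inhibitor of metalloproteinases, which cut matrix and membrane proteins. The labels do not say which strain or sex was used or which part of Timp3 the mutation removes.

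An integrin is a pair of one α and one β subunit, and the pair decides which matrix protein is bound. Talins and kindlins bind the β tail from inside the cell and switch the receptor on, after which a complex of integrin-linked kinase, PINCH and parvin, kinases such as FAK and Src, and linkers such as vinculin and filamin join it to signalling and to actin. In heart muscle the same proteins are concentrated at costameres, the sites where the sarcomeres are anchored sideways to the cell membrane and the basement membrane. Fibroblasts, endothelium and smooth muscle of the heart use many of them as well.

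Values are FPKM, in which a fragment count is divided by the length of the transcript and by the library's mapped total, summed over the transcripts of a gene. They are per length, but a short form adds as much to a sum as a long form of the same FPKM, which limits comparison between genes. The values of single libraries and the means ± SD (n = 3 in each group) are scaled between libraries unless they are called deposited. Differences are double mutant minus control on the scale of log2(scaled FPKM + 1), and a gene passed when its limma p, adjusted by the Benjamini-Hochberg method over all 11405 genes tested, was under 0.05. Depth was 654 to 1339 aligned megabases in the controls and 683 to 910 in the double mutants, taken as transcript coverage times length. The deposited FPKM of Timp3 was 52.1, 38.0 and 36.3 in the controls against 20.2, 28.0 and 29.6 in the double mutants, so its RNA was lower but present (log2 difference -0.61, adjusted p = 0.28). Apoe, targeted in both groups, stood at 2.97 ± 0.652 and 2.52 ± 0.822 (log2 difference -0.19, adjusted p = 0.76). The heart muscle genes Myh6, Tnnt2, Tnni3, Actc1, Pln, Ryr2, Myl2 and Ttn summed to 13267 to 16971 in the controls and 16056 to 22021 in the double mutants. The libraries differed in other content too: atrial markers summed to 1481, 812 and 124 in the controls against 175, 996 and 1467 in the double mutants, and red cell markers stood at 113 to 489 in the controls against 12250, 471 and 1194 in the double mutants. Adipocyte markers summed to 74.9 in library 1, 14.7 in library 5 and 0.468 to 1.5 in the others, and macrophage markers to 64.8 in library 1 and 34.3 to 43.6 in the others. The part of this content in the results below was not tested.

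Of the 32 genes, 29 reached the mean FPKM of 1 that was needed for the test. Itgb3 and Itgb4 stayed below it, and Itga10 was listed at 0 in all 6 libraries. By limma 0 of the 29 passed the adjusted threshold, as did 0.0263% of all genes tested. At an unadjusted p under 0.05, 5 of the 29 (17.2%) were lower in the double mutants against 5.29% of all genes, and 0 were higher against 6.97%. These 5 were the collagen receptor subunit Itga1, the subunit Itga9, the kindlin Fermt2, the scaffold Bcar1 and the kinase Ptk2. All 3 double mutants lay below all 3 controls in 8 of the 29 genes (27.6%), against 9.34% of all genes, and above them in 1 (Itga3), against 9.99%. The difference was below 0 in 21 of the 29 (72.4%), against 51.4% of all genes, and above 0 in 8, against 48.6%, and the median difference of the 29 was -0.11, against -0.01 over all genes tested. Scaling to a fixed total gave 10 lower and 0 higher members at that p, against 13.9% and 2.89% of all genes, and no further scaling gave 5 and 0, against 5.27% and 3.43%. Weighting libraries by their spread gave 7 lower and 3 higher, against 10.1% and 11.6%, and the strongest transcript of each gene 5 and 2 of 26, against 4.28% and 6.37%. With 1 library left out the lower members numbered 3 without library 3, 4 without library 4, 5 or 6, and 5 without library 1 or 2. In these settings 3.35% to 6.32% of all genes were lower. Itga6 was higher without library 2, against 6.79% of all genes, and Tns1 without library 4, against 7.42%. With any other library left out 0 members were higher, against 4.49% to 6.64% of all genes.

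**Figure D1:**
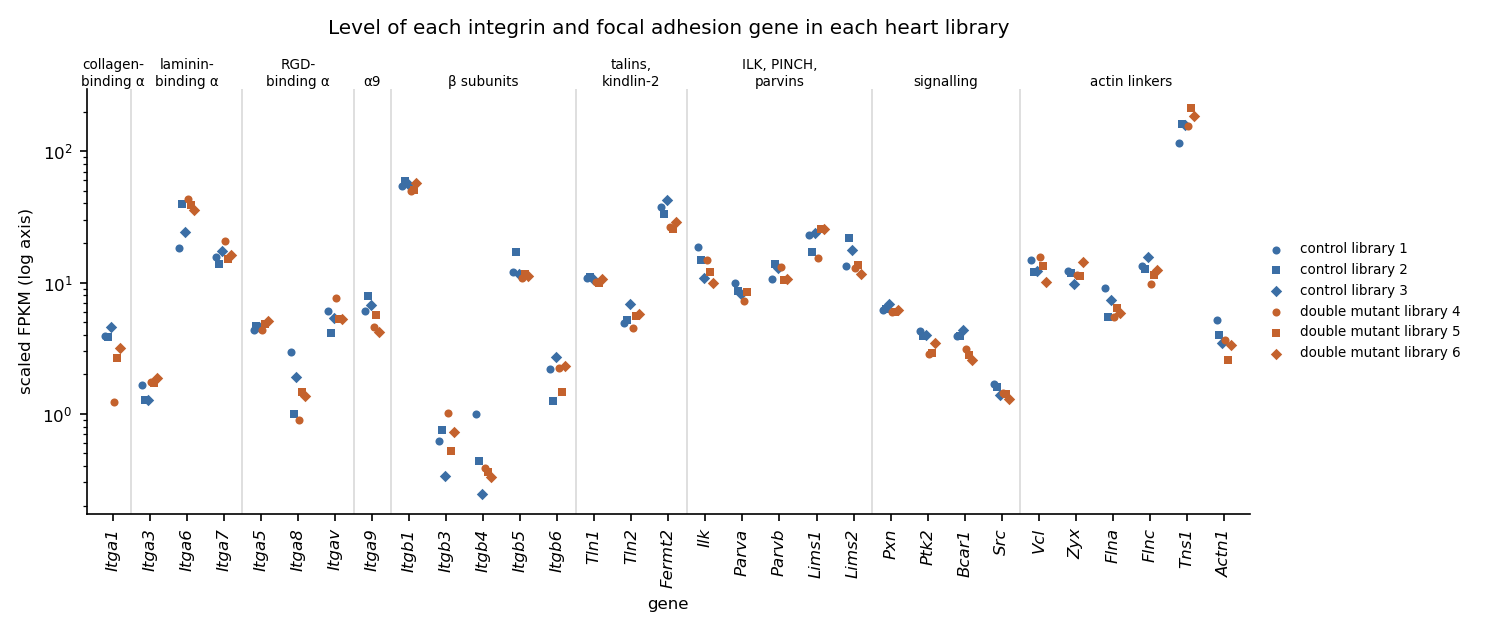
Each point is the scaled FPKM of one gene (horizontal axis, grouped by role) in one library (vertical axis, logarithmic), blue for the controls and orange for the double mutants. Tns1 stands highest and Itgb3 and Itgb4 lowest, and for most genes the spread among libraries of a group is as wide as the gap between the groups. Itga10, listed at 0, and Parva in library 6, which has no estimate, are not drawn.

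**Figure D2:**
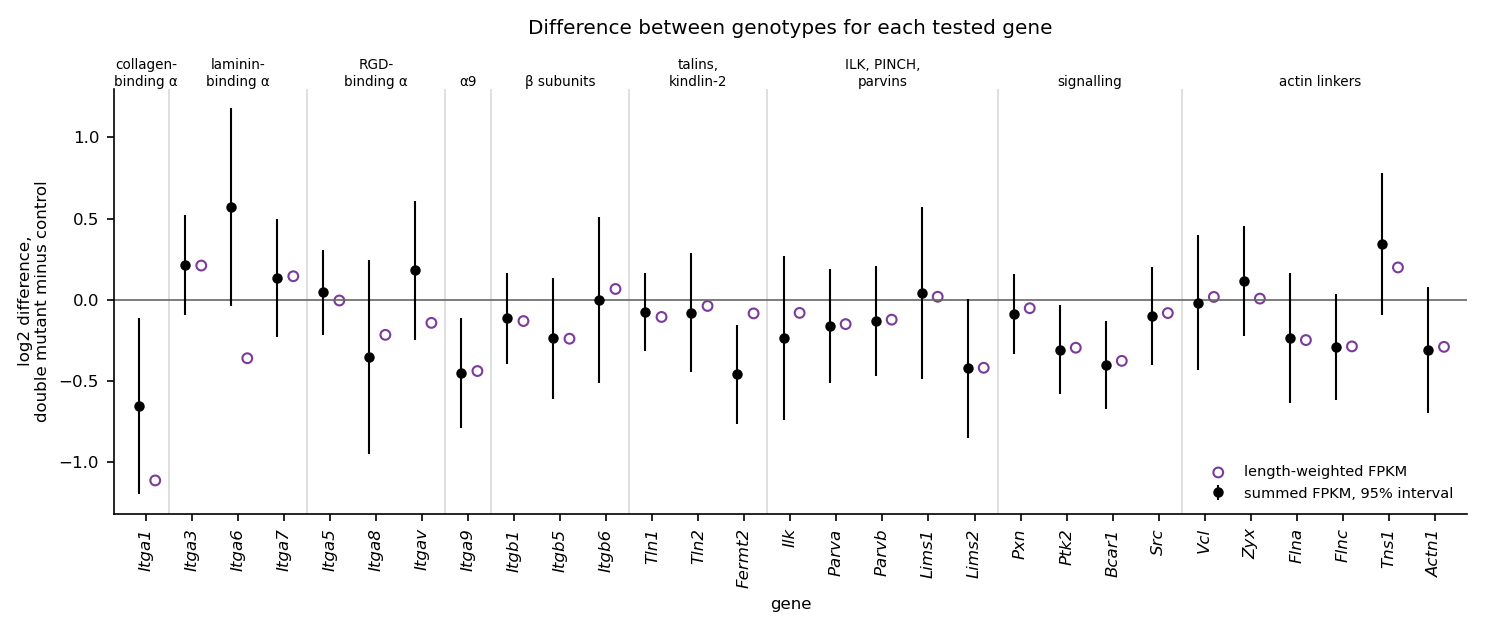
The vertical axis is the log2 difference, double mutant minus control, of each of the 29 tested genes (horizontal axis, grouped by role); black points are summed FPKM with limma's 95% interval and open circles are FPKM weighted by transcript length. The 5 intervals that lie wholly below 0 are those of Itga1, Itga9, Fermt2, Ptk2 and Bcar1, and the open circles of Fermt2 and Itga6 stand far from their black points.

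Among the integrin subunits, Itga1 and Itga9 had the lowest p, and neither passed the adjusted threshold. Itga1, the α subunit of the collagen receptor α1β1 (chr13:115748287-115892172 in build NCBIM37, minus strand), had a scaled FPKM of 3.95, 3.86 and 4.55 in the controls (libraries 1, 2 and 3) against 1.23, 2.65 and 3.20 in the double mutants (libraries 4, 5 and 6). The double mutants lay below the controls without overlap, library 4 lowest of all. The means were 4.12 ± 0.372 and 2.36 ± 1.01, a log2 difference of -0.65 (95% interval -1.20 to -0.11, adjusted p = 0.34 by limma). Without library 4 the difference was -0.38, and 93.6% of the gene's FPKM came from transcripts assembled in single libraries rather than from its annotated one. Itga9, whose product pairs with β1 and binds tenascin-C and other ligands (chr9:118515808-118810121, plus strand), stood at 6.12, 7.96 and 6.73 in the controls against 4.60, 5.65 and 4.21 in the double mutants. All the double mutants were again below all the controls (log2 difference -0.45, 95% interval -0.79 to -0.11, adjusted p = 0.29 by limma). Itga9 had an unadjusted p over 0.05 when library 2 or library 6 was left out, and Itga1 when library 3 was.

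Endothelial markers were lower beside these subunits. The summed FPKM of 10 endothelial genes was 135 to 167 in the controls and 108 to 127 in the double mutants, without overlap, and 9 of the 10 were lower. Fibroblast markers were lower in 9 of 9 genes, but their sums overlapped, at 649 to 771 and 604 to 732, while their mean deviations on the log2 scale did not. Smooth muscle and pericyte markers were lower in 7 of 9 tested genes, with sums of 291 to 423 and 301 to 336, and none of the genes of the 3 lists was at 0 throughout. In RNA from whole heart, fewer cells of a type and less RNA per cell cannot be told apart, and the part of these cells in the integrin results was not tested.

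The laminin-binding subunits Itga3, Itga6 and Itga7 had differences above 0, and the largest of them turned on a single short transcript. Under the alternatives Itga7 was at -0.045 with scaling to a fixed total and at -0.041 with libraries weighted by their spread, and Itga6 was at -0.36 with transcripts weighted by length. Itga6 (chr2:71583673-71696473, plus strand), whose product pairs with β1 or β4 to bind laminin, stood at 18.3, 39.7 and 24.1 in the controls against 43.3, 38.8 and 35.6 in the double mutants. Control library 2 lay among the double mutants, and the other controls lay below them. The log2 difference was 0.57 (95% interval -0.04 to 1.18, adjusted p = 0.44 by limma), and it ran from 0.33 without library 1 to 0.87 without library 2. The transcript ENSMUST00000139760, which is 443 nt long with 2 exons, had a deposited FPKM of 0, 15.7 and 0 in the controls against 27.3, 20.7 and 19.0 in the double mutants. All other transcripts of Itga6 together stood at 21.3, 24.2 and 22.2 in the controls against 17.0, 14.1 and 17.0 in the double mutants. These remaining transcripts thus ran the other way, without overlap. When each FPKM was multiplied by its transcript's length before summing, which gives the short form little weight, Itga6 had deposited values of 19.2, 19.5 and 18.5 against 14.9, 12.7 and 14.2, a log2 difference of -0.36 (adjusted p = 0.28 by limma). This weighting was chosen after the data were seen.

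Itga7, the main laminin receptor subunit of striated muscle, had 15.6, 13.9 and 17.3 in the controls and 20.8, 15.1 and 16.2 in the double mutants (log2 difference 0.14). The groups overlapped. Itga3, another laminin receptor subunit, was low throughout, at 1.66, 1.28 and 1.28 in the controls and 1.75, 1.73 and 1.88 in the double mutants (log2 difference 0.22, adjusted p = 0.58 by limma). It was the single gene of the 29 in which all the double mutants lay above all the controls. Beside them, cardiomyocyte markers were higher in 6 of 8 genes with overlapping sums, and their part in these values was not tested.

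Subunits that recognise the RGD motif of fibronectin, vitronectin and related ligands showed no common direction. Itga5, of the classical fibronectin receptor, was the steadiest at 4.37, 4.71 and 4.62 against 4.32, 4.83 and 5.12 (log2 difference 0.05). Itgav, the vitronectin receptor subunit, stood at 6.12, 4.14 and 5.32 against 7.64, 5.25 and 5.24, a log2 difference of 0.18 that became -0.14 when transcripts were weighted by length. Its longest reference transcript, ENSMUST00000028499 of 7054 nt, had a deposited FPKM of 7.13, 2.29 and 3.25 against 0, 1.35 and 1.09. Another long form, ENSMUST00000111740 of 6788 nt, had 0, 1.87 and 1.65 against 3.34, 0 and 3.06. Both long forms end at the same base, so the division of reads between them is uncertain. A form of 463 nt held 4.47 in library 4 alone. Itga8, the nephronectin receptor subunit, was spread widely among the controls at 2.93, 1.00 and 1.92, with 0.891, 1.46 and 1.38 in the double mutants (log2 difference -0.35). All 3 of these genes overlapped between the genotypes.

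Among the β subunits, Itgb1 held most of the FPKM and showed no difference beyond its spread. Itgb1 is the common partner of the collagen, laminin and fibronectin receptors (chr8:131209554-131257100, plus strand). It stood at 54.0, 59.8 and 56.8 in the controls against 49.5, 50.5 and 57.5 in the double mutants (log2 difference -0.11, 95% interval -0.40 to 0.17). Library 6 lay with the controls. In each library Itgb1 made up 75.4% to 79.8% of the deposited FPKM of the 5 β genes in the set, Itgb5 15.5% to 21.5%, Itgb6 1.59% to 3.81%, Itgb3 0.472% to 1.58% and Itgb4 0.339% to 1.43%. The order Itgb1, Itgb5, Itgb6 held in every library, and the ranges of Itgb3 and Itgb4 overlapped. Itgb5, of the vitronectin receptor αvβ5, was at 12.0, 17.1 and 11.7 against 10.8, 11.7 and 11.2 (log2 difference -0.24, adjusted p = 0.61 by limma), with library 5 a little below control library 3. Itgb6, of a receptor known for activating latent TGF-β at epithelia, was at 2.18, 1.26 and 2.73 against 2.25, 1.47 and 2.33, a log2 difference of 0.00. Itgb3, the platelet and vascular subunit, ran from 0.339 to 1.01 and Itgb4, the hemidesmosome subunit, from 0.243 to 1.00 over the 6 libraries.

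The splice forms of Itgb1 are shown because striated muscle uses a tail of its own. An 81-nt exon near the 3′ end of the gene (chr8:131250883-131250963 in NCBIM37, plus strand) encodes the cytoplasmic tail known as β1D. The lines below give the exon in capitals with 24 bases on each side, and the junction without it, read 5′ to 3′ from GENCODE M21 transcripts of build GRCm38.
Itgb1 with the muscle exon: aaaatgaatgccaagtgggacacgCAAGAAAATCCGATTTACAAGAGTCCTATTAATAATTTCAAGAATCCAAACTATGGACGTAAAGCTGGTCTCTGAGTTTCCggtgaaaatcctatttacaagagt
Itgb1 without it: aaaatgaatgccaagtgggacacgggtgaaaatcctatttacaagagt
A transcript was counted as holding this exon when one of its exons starts at the same base, and the exon's end was not compared. Transcripts so counted had a deposited FPKM of 18.4 in control library 3, which is 35.1% of Itgb1 there. In double mutant library 6 they had 35.4, which is 60.9%. They were listed at 0 in libraries 1, 2, 4 and 5. The form was thus listed in 1 library of each genotype, in both as a transcript assembled from that library's own reads. A value of 0 in these files can be a form that was not assembled, so it does not show that the exon was absent.

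Talins and kindlins, which switch integrins on, all had differences below 0. Fermt2 encodes kindlin-2, the kindlin of the heart (chr14:46078467-46149793, minus strand). Its scaled FPKM was 37.7, 33.4 and 42.3 in the controls and 26.6, 25.7 and 29.1 in the double mutants. Every double mutant lay below every control, with means of 37.8 ± 4.47 and 27.1 ± 1.77. The log2 difference was -0.46 (95% interval -0.77 to -0.15, adjusted p = 0.26 by limma), and its unadjusted p stayed under 0.05 whichever library was left out. Tln1, the widespread talin, was tightly grouped at 10.8, 10.9 and 10.7 against 10.1, 10.0 and 10.6, without overlap (log2 difference -0.07, adjusted p = 0.81 by limma). Tln2, the talin of mature muscle, overlapped at 4.90, 5.14 and 6.89 against 4.48, 5.51 and 5.80 (log2 difference -0.08).

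The single transcripts of Fermt2 differed between the genotypes more than their sum did. Some of the transcripts hold an exon of 33 nt that others lack. This exon (chr14:46096093-46096125 in NCBIM37, minus strand) keeps the reading frame, its length being a multiple of 3. It is shown in capitals between 24 bases of its neighbours, above the junction that skips it, again from GENCODE M21.
Fermt2 with the exon: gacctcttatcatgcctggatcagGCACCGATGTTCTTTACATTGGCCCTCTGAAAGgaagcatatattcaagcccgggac
Fermt2 without the exon: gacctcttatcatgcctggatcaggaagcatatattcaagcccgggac
The full-length reference transcript ENSMUST00000045905, with 15 exons and 3296 nt, lacks the exon. It had a deposited FPKM of 15.3, 7.70 and 9.43 in the controls against 3.40, 3.69 and 3.72 in the double mutants. Its log2 difference in the fit over single transcripts was -1.24 (95% interval -1.76 to -0.73, adjusted p = 0.23 by limma, 0.13 to 0.62 over the alternatives). The short reference transcript ENSMUST00000150660, with 6 exons and 816 nt, holds the exon and was listed at 12.4, 9.70 and 10.9 in the controls against 0 in all 3 double mutants. Its adjusted p was 0.00237 by limma (0.0025 to 0.033 over the alternatives), and 0.129% of the 12411 transcripts tested passed. It met the mean FPKM of 1 through the controls alone, so this p is no evidence that the form was lost. The reference transcripts ENSMUST00000116488, ENSMUST00000141424 and ENSMUST00000149723 were listed at 0 in every library.

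The exon itself was not lost from the double mutants. In each of them Cufflinks had assembled a transcript of 16 exons and 3329 nt that holds the exon, at a deposited FPKM of 10.9, 11.0 and 12.0 in libraries 4, 5 and 6. No control had such a transcript. All transcripts with the exon together stood at 12.4, 9.70 and 10.9 in the controls and 10.9, 11.0 and 12.0 in the double mutants, so the summed level of the exon overlapped between the genotypes. Of the FPKM of the forms that begin at the 5′ end of the gene, those with the exon made up 44.8%, 55.7% and 53.7% in the controls and 76.3%, 75.0% and 76.3% in the double mutants. This share, without overlap between the groups, was computed after the transcripts had been seen and carries no test. The form with the exon was the one of 816 nt in the controls and the one of 3329 nt in the double mutants. The share thus depends on which forms were assembled in a library, and it does not measure how often the exon was included. It also leaves out the forms that start inside the gene. Assembled forms that start inside the gene, with 12 to 14 exons, added 16.2, 16.2 and 18.6 in the controls and 12.8, 8.26 and 13.6 in the double mutants.

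The length given to the exon-bearing form bears on the sum. A form of 816 nt in the controls and one of 3329 nt in the double mutants had nearly the same FPKM, although the longer form stands for more fragments at the same FPKM. With each FPKM multiplied by its transcript's length, Fermt2 had deposited values of 32.3, 23.9 and 28.0 in the controls and 25.5, 21.9 and 27.6 in the double mutants, which overlap. The log2 difference was then -0.08 (adjusted p = 0.83 by limma). From reference transcripts alone the difference was -2.23 and passed (adjusted p = 0.014 by limma, as 0.0595% of genes did), and from the strongest transcript of the gene in each library it was -0.0023. Over all alternatives the adjusted p of Fermt2 ran from 0.014 to 1.00. Transcripts of the other strand with 2 exons lay over the gene at an FPKM of 8.94 in library 2 and 8.39 in library 5. No source used here states whether strand was kept, so reads of either strand may be mixed.

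**Figure D3:**
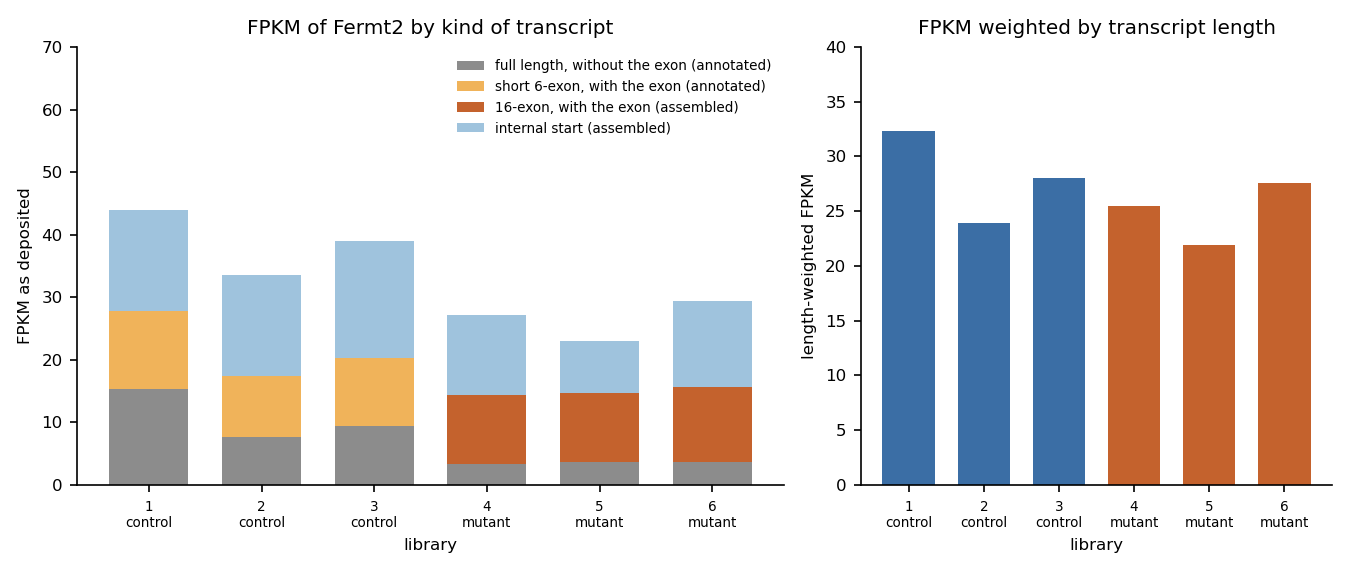
Left, stacked bars give the deposited FPKM of Fermt2 (vertical axis) in each library (horizontal axis) by kind of transcript, where the exon is the one of 33 nt. Right, the same gene with each FPKM weighted by transcript length. The short form with the exon fills the controls and the 16-exon form the double mutants at 9.70 to 12.4, and the heights on the right overlap between the groups.

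**Figure D4:**
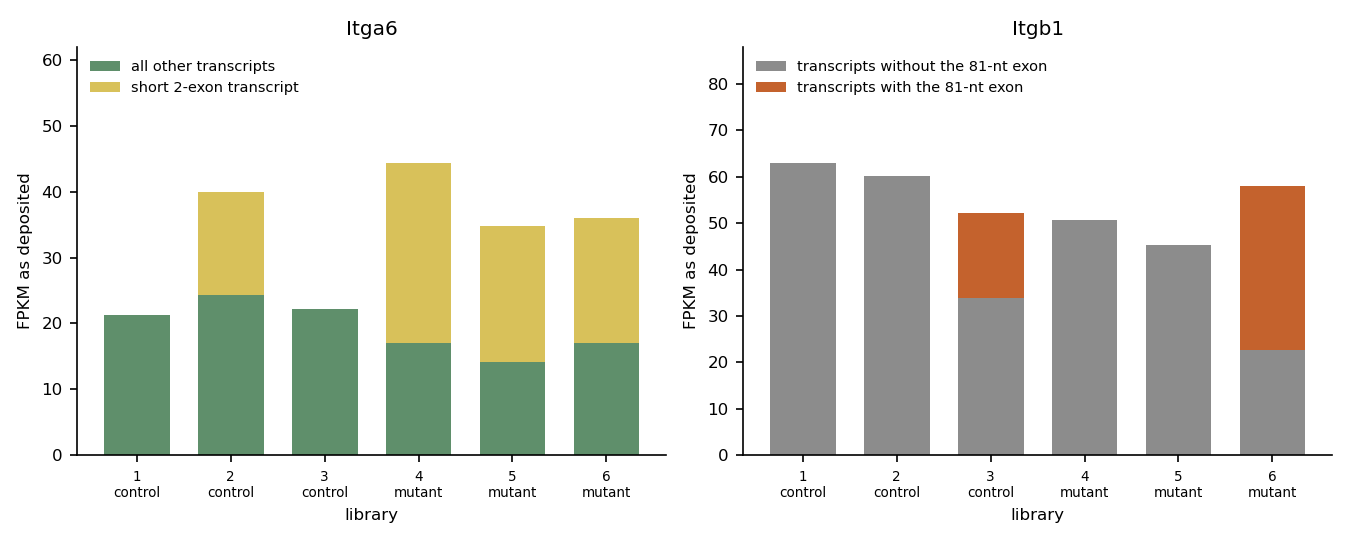
Stacked bars give the deposited FPKM (vertical axis) in each library (horizontal axis), for Itga6 on the left split into the 2-exon transcript of 443 nt and all others, and for Itgb1 on the right split by the 81-nt exon. The short Itga6 form is in library 2 and in all 3 double mutants, and the Itgb1 exon is listed in libraries 3 and 6.

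The fit over single transcripts covered the other members too. Over single reference transcripts, 35 transcripts of 23 members were tested, and 1 of them passed, the Fermt2 form above that met the filter through the controls alone. At an unadjusted p under 0.05 stood 8 of the 35 (22.9%), against 8.24% of all transcripts. A pair of the 8 came from Fermt2 alone, and some were forms listed at 0 in part of the libraries. The share is therefore not a count of separate genes. Besides the pair from Fermt2, the short form of Itga6 and the Itgav form ENSMUST00000028499, the 8 held 1 transcript each of Ilk, Itga7, Itga9 and Zyx. The values of these forms are deposited FPKM. The Zyx form ENSMUST00000168642 had 14.2, 12.0 and 9.04 in the controls and 7.24, 8.51 and 7.32 in the double mutants, the Itga9 form ENSMUST00000044165 had 3.71, 3.21 and 3.45 against 1.54, 2.48 and 0.924, and neither overlapped. Other Zyx forms were at 0 in the controls, with ENSMUST00000070635 at 1.78 in library 4 and ENSMUST00000031890 at 1.56 and 1.92 in libraries 5 and 6. Over all its transcripts Zyx was not lower (log2 difference 0.12). The Itga7 form ENSMUST00000099112 had 13.5, 7.63 and 11.7 against 18.3, 13.5 and 14.1. Libraries 5 and 6 lay close to control library 1. The Ilk form ENSMUST00000163389 had 8.05, 6.55 and 10.1 against 0, 4.40 and 0, while the Ilk form ENSMUST00000033182 had 4.63, 8.36 and 0 against 15.2, 6.46 and 9.95. Both forms of Ilk have 13 exons and end at the same base, so the division of reads between them is uncertain. Their adjusted p ran from 0.53 to 0.60 by limma, apart from the pair of Fermt2.

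The complex of integrin-linked kinase, PINCH and parvin showed no gene past an unadjusted p of 0.05. Ilk, the scaffold of the complex, was at 18.5, 14.8 and 10.9 against 14.9, 12.1 and 9.85 (log2 difference -0.24), and transcripts outside the gene overlapped its exons at a mean FPKM of 5.34. Lims1, or PINCH-1, was at 22.9, 17.2 and 23.7 against 15.4, 25.7 and 25.7 (log2 difference 0.04). Lims2, or PINCH-2, was at 13.3, 21.8 and 17.6 against 12.8, 13.6 and 11.6, a log2 difference of -0.42 (adjusted p = 0.41 by limma). Its control library 1 lay just under double mutant library 5, and from reference transcripts alone its difference was 0.48 (adjusted p = 0.82 by limma). Parva, which encodes α-parvin, was at 9.89, 8.67 and 8.11 against 7.24 and 8.42 in libraries 4 and 5, a log2 difference of -0.16 over 5 libraries. In library 6 its locus is marked in the file as one whose abundance could not be estimated, so that value was treated as missing. Kept as 0 it gave a difference of -1.21 with an adjusted p of 0.60. Parvb, or β-parvin, was at 10.7, 14.0 and 13.0 against 13.0, 10.4 and 10.7 (log2 difference -0.13). Transcripts assembled in single libraries held 92.95% of the FPKM of Lims1, 82.87% of that of Lims2 and 100% of that of Parva. For Ilk and Parvb they held 10.78% and 2.906%.

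All 4 signalling genes had differences below 0, and in the pair with the lowest p the groups did not overlap. Bcar1 encodes p130Cas, a scaffold that is phosphorylated when adhesions are stretched (chr8:114234367-114267748, minus strand). It had 3.91, 3.89 and 4.33 in the controls and 3.10, 2.80 and 2.56 in the double mutants. The gap between the groups was wider than the spread within either, and the unadjusted p stayed under 0.05 whichever library was left out. The log2 difference was -0.40 (95% interval -0.67 to -0.13, adjusted p = 0.26 by limma), and -0.38 with length weighting. It was -0.19 from reference transcripts alone (adjusted p = 0.74 by limma) and -0.39 from the strongest transcript (adjusted p = 0.60 by limma). In neither of these settings was the unadjusted p of Bcar1 under 0.05. Ptk2, which encodes focal adhesion kinase (chr15:73035535-73253621, minus strand), had 4.25, 3.94 and 3.96 against 2.86, 2.93 and 3.48. The groups were apart, with library 6 nearest the controls (log2 difference -0.31, 95% interval -0.58 to -0.04, adjusted p = 0.36 by limma). Its unadjusted p stayed under 0.05 only without library 6. Pxn, which encodes the docking protein paxillin, was at 6.19, 6.34 and 6.90 against 5.95, 5.92 and 6.19 (log2 difference -0.09), touching at one value. Src, the kinase that acts with FAK, was at 1.69, 1.61 and 1.38 against 1.45, 1.43 and 1.30 (log2 difference -0.10).

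The linkers to actin had differences in both directions, 4 below 0 and 2 above, of which Zyx was at -0.058 with scaling to a fixed total. Flnc, the filamin of muscle Z-discs and costameres, was at 13.4, 12.6 and 15.7 against 9.75, 11.4 and 12.5 (log2 difference -0.29, adjusted p = 0.46 by limma). Its groups were apart by little, since library 6 lay just below control library 2. Flna, the widespread filamin, was at 9.02, 5.49 and 7.30 against 5.50, 6.42 and 5.87 (log2 difference -0.23). Actn1, the non-muscle α-actinin that crosslinks actin, was at 5.16, 3.97 and 3.46 against 3.62, 2.56 and 3.34 (log2 difference -0.31). Vcl, which encodes vinculin, was at 14.9, 12.1 and 12.3 against 15.8, 13.3 and 10.1 (log2 difference -0.02). Zyx, which encodes zyxin of stressed actin fibres, was at 12.2, 11.9 and 9.81 against 11.5, 11.2 and 14.4 (log2 difference 0.12). Tns1, or tensin-1, which binds β tails and actin, had by far the highest values of the set, at 115, 162 and 159 against 155, 214 and 184 (log2 difference 0.34, adjusted p = 0.52 by limma). Flna, Actn1, Vcl, Zyx and Tns1 overlapped between the genotypes.

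Weighting by transcript length left most of these values as they were. Under it 22 of the 29 genes had a difference below 0, against 5690 of all 11073 genes. The median was -0.12, against -0.008 over all genes. Of the 29, 0 passed the adjusted threshold, against 0.0452% of all genes. At an unadjusted p under 0.05, 5 genes were lower against 5.68% of all genes and 0 were higher against 7.09%. Of the 5, Itga1, Itga9, Bcar1 and Ptk2 were shared with the plain sums, at -1.11, -0.44, -0.38 and -0.30, and Itga6 took the place of Fermt2. Assembled transcripts held over 50% of the FPKM in 9 of the 31 genes listed above 0, with a median of 34.7% over the 31.

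Ratios of related members within a library, which do not depend on the scaling, were compared for 7 pairs by a two-sided exact permutation test. The ratio of Lims1 to Lims2 was 1.73, 0.785 and 1.34 in the controls and 1.20, 1.89 and 2.23 in the double mutants. That of Itga6 to Itga7 was 1.17, 2.87 and 1.39 against 2.09, 2.58 and 2.20. Both pairs overlapped and had an exact p of 0.4, the lowest of the 7, where 3 against 3 libraries allow 0.1 at best. The ratios of Tln1 to Tln2 (1.56 to 2.25), Flna to Flnc (0.436 to 0.674), Itga5 to Itgav (0.565 to 1.14), Itgb5 to Itgb1 (0.195 to 0.286) and Parva to Parvb (0.555 to 0.922) overlapped as well, and the adjusted p over the 7 pairs was 0.9 for each. The mean difference of the log2 ratio was 0.49 for Lims1 to Lims2 and 0.45 for Itga6 to Itga7, and between -0.16 and 0.05 for the other 5. With transcripts weighted by length the difference for Itga6 to Itga7 was -0.54 (exact permutation p = 0.1, unadjusted, the lowest possible). That weighting was chosen after the data were seen. With so few libraries these tests do not show that the ratios were alike.

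Genes of the matrix proteins that integrins bind were read beside the receptors, with no test between the lists. Of 30 ligand genes 27 were tested. Their median difference was -0.36, and 21 were below 0 (77.8%, against 51.4% of all genes). By limma 0 passed the adjusted threshold. At an unadjusted p under 0.05 stood 10 lower (37.0%, against 5.29% of all genes) and 0 higher (against 6.97%). Col3a1, a fibrillar collagen, had a deposited FPKM of 71.2, 74.3 and 50.8 in the controls against 32.6, 26.2 and 33.7 in the double mutants (log2 difference -0.98). Col4a1, of the basement membrane collagen that α1β1 binds, had 30.6, 43.8 and 28.7 against 17.1, 11.0 and 12.9 (log2 difference -1.20). Nid1, which links laminin to collagen IV, stood at 12.1 ± 0.760 against 7.97 ± 0.820 (log2 difference -0.55), Col6a3 at 11.8 ± 1.07 against 7.37 ± 1.28 (-0.61) and Col1a1, which is also one of the fibroblast markers, at 15.4 ± 3.34 against 8.39 ± 1.33 (-0.80). The groups were apart in all 5 of these genes, and their adjusted p lay between 0.20 and 0.23 by limma. Over the 27 ligand genes the groups were apart downward in 9 (33.3%, against 9.34% of all genes) and upward in 1 (3.7%, against 9.99%).

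Other adhesion genes outside the set were counted in the same way. Of 52 further plaque and regulator genes 46 were tested. Their median difference was -0.14, and 38 were below 0 (82.6%, against 51.4% of all genes). By limma 0 passed the adjusted threshold, and 1 of the 46 was lower at an unadjusted p under 0.05 (2.17%, against 5.29% of all genes). The groups were apart downward in 8 (17.4%, against 9.34%) and upward in 1 (2.17%, against 9.99%). Sorbs2, an adaptor of Z-discs, stood at 60.5 ± 16.4 against 39.3 ± 0.559 (log2 difference -0.57), the talin regulator Kank2 at 15.8 ± 5.49 against 10.5 ± 0.536, the kinase Fyn at 8.05 ± 0.604 against 6.51 ± 0.767 and the scaffold Git1 at 12.9 ± 1.37 against 10.6 ± 0.196. None of these 4 overlapped between the genotypes, and their adjusted p ran from 0.35 to 0.44 by limma. Of 12 further integrin subunits only Itga2b, of platelets, and Itgb2, of leukocytes, reached the mean of 1, at 1.57 ± 1.00 against 0.981 ± 0.848 and at 1.16 ± 0.495 against 1.11 ± 0.191.

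The dystrophin complex and other costamere genes, the second link of heart muscle to its matrix, had differences in both directions. All 21 were tested, with 11 differences below 0 (52.4%, against 51.4% of all genes), 10 above it and a median of -0.02. Sgca, or α-sarcoglycan, stood at 35.9 ± 7.03 against 50.5 ± 7.84 (log2 difference 0.49, adjusted p = 0.36 by limma) and Dtna, or dystrobrevin, at 6.63 ± 0.927 against 8.30 ± 0.487 (0.29). In both, all the double mutants lay above all the controls. Svil, or supervillin, was lower without overlap (-0.18), and Xirp1 was at 17.9 ± 4.42 against 13.7 ± 0.910 (-0.33). Over the 21 genes the groups were apart downward in 1 (4.76%, against 9.34% of all genes) and upward in 3 (14.3%, against 9.99%). Among 16 tested targets and factors of mechanical signalling, 10 had a difference below 0 (62.5%, against 51.4% of all genes). Wwtr1, the coactivator TAZ, stood at 11.0 ± 0.428 against 7.62 ± 1.40 (-0.49), the tropomyosin Tpm4 at 25.1 ± 5.99 against 16.4 ± 1.81 (-0.57), the natriuretic peptide Nppb at 68.6 ± 55.7 against 27.7 ± 6.90 (-1.02, but -0.40 without control library 2, which stood at 133) and the secreted Ccn1 at 9.31 ± 1.81 against 7.40 ± 1.23 (-0.29). Acta2, also one of the smooth muscle markers, went the other way at 26.2 ± 4.14 against 41.2 ± 9.76 (0.62). Wwtr1, Tpm4 and Acta2 did not overlap between the genotypes, and by limma these 5 genes had an adjusted p between 0.27 and 0.57. Over the 16 genes the groups were apart downward in 2 (12.5%, against 9.34% of all genes) and upward in 1 (6.25%, against 9.99%).

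The members were also averaged within each library. The mean deviation of 28 members from their 6-library means, leaving out Parva, was 0.07, 0.03 and 0.08 in the controls and -0.08, -0.06 and -0.04 in the double mutants on the log2 scale. On this average all the double mutants lay below all the controls, and no test was made of it. The ligands deviated by 0.30, 0.22 and 0.06 against -0.16, -0.22 and -0.19, and the endothelial markers by 0.06, 0.30 and 0.16 against -0.08, -0.24 and -0.21. Over all 11332 genes with a value in every library the deviations lay between -0.02 and 0.01.

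**Figure D5:**
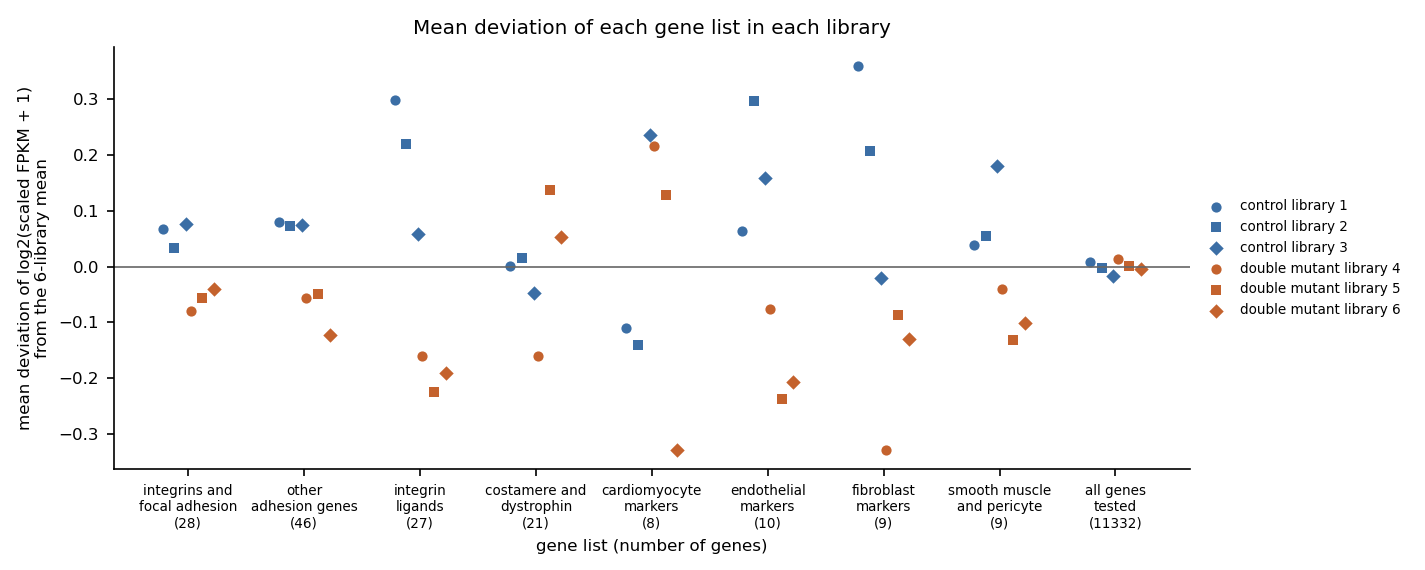
Each point is the mean deviation of log2(scaled FPKM + 1) of one gene list (horizontal axis) in one library from the 6-library mean (vertical axis), blue for the controls and orange for the double mutants. The integrin and focal adhesion genes, the other adhesion genes, the ligands and the endothelial, fibroblast and smooth muscle markers are apart between the groups, and the costamere genes and cardiomyocyte markers are not.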

How the data were processed

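For each library the authors deposited a Cufflinks table of annotated and newly assembled transcripts with their FPKM, per the file headers. The tools TopHat, Bowtie and Cufflinks and the build NCBIM37 come from the submitters' processing notes, with versions and settings not given in the sources used here. The deposited values hold no counts, so no count test was run. The members and gene lists were chosen with earlier results of these data known, so no list was tested. The genes named outside the set are the up to 5 with the smallest p of each list, except some that are not reported here. A gene's value is the sum over its reference transcripts and over assembled transcripts of at least 300 nt sharing at least 50% of exonic bases with it. Transcripts whose file marks the estimate as failed were treated as missing, a step chosen after the data were seen that concerns Parva alone among the members. Genes with a mean FPKM of at least 1 were scaled by the median of ratios, and log2(scaled FPKM + 1) was compared two-sided by limma 3.58.1 (R 4.3.3) with an intensity trend. This scale understates changes of low genes. Assembled transcripts held 34.0% to 39.6% of aligned bases. Fragments per gene are unknown and no counting interval can be given. Beyond littermates nothing says how the mice relate, and p-values reflect only the spread among these samples, which may be technical. Gene names and printed sequences come from GENCODE M21 (GRCm38), and coordinates from the files. The fit was tested on simulated data.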

Additional observations from a re-analysis of the deposited data

How the results depend on the processing

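No member passed the adjusted threshold under any of the 18 alternatives except Fermt2 from reference transcripts alone. That setting leaves out the assembled Fermt2 form that held the exon in the double mutants, so the pass is no evidence of a lower level. The count of all genes past the threshold was 3 and became 5 with scaling to a fixed total, 6 without a filter on low values, 1 with a mean FPKM of at least 5, 6 from reference transcripts only, 163 with libraries weighted by their spread and 5 with length weighting; it was 1 without library 1, 8 without library 2, 10 without library 4 and 3 to 4 without library 3, 5 or 6. Col3a1, Col4a1 and Col6a3 passed with libraries weighted by their spread (adjusted p = 0.044, 0.035 and 0.044 by limma). The median of the listed genes, -0.11, became -0.19 without further scaling, -0.17 with quantile normalization, -0.30 with scaling to a fixed total, -0.19 from reference transcripts and -0.17 from the strongest transcript. Scaling to a fixed total moved the median of all genes to -0.16 and the share at an unadjusted p under 0.05 to 13.9% lower and 2.89% higher.

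Small and larger differences changed sign; the cause was not tested. With length weighting they were -0.064 for the log2 ratio of Tln1 to Tln2, -0.54 for Itga6 to Itga7, 0.17 for Itga5 to Itgav, -0.0047 for Itga5, -0.36 for Itga6, -0.14 for Itgav, 0.066 for Itgb6, 0.017 for Vcl, 0.078 for Itgb2 and 0.071 for Xirp1. From reference transcripts only they were -0.21 for Flna to Flnc, 0.25 for Itga5 to Itgav, 0.10 for Itgb5 to Itgb1, -0.19 for Itga5, -0.37 for Itgav, -0.74 for Lims1, 0.48 for Lims2, 0.12 for Tln2, 0.034 for Ptk2, -0.21 for Zyx, -0.18 for Tns1, 0.22 for Xirp1 and 0.075 for Tpm4. From the strongest transcript they were -0.031 for Itga5, -0.031 for Itgav, 0.25 for Itgb6, 0.17 for Ilk, -0.19 for Lims1, 0.12 for Tln2, 0.11 for Vcl and -0.49 for Zyx. Scaling to a fixed total gave -0.11 for Itga5, -0.045 for Itga7, -0.14 for Lims1 and -0.058 for Zyx, no further scaling -0.016 for Itga5 and -0.031 for Lims1, and quantile normalization 0.048 for Itgb6, -0.028 for Lims1 and 0.0445 for Itgb2. A pseudocount of 0.1 gave 0.012 for Itgb6 and 0.012 for Itgb2, and weighting by spread -0.041 for Itga7. With 1 library left out, differences ran from -0.20 to 0.16 for Itgb6, -0.10 to 0.28 for Lims1, -0.16 to 0.051 for Tln2, -0.15 to 0.15 for Vcl, -0.19 to 0.15 for Itgb2, -0.073 to 0.24 for Flna to Flnc, -0.32 to 0.091 for Itga5 to Itgav, -0.24 to 0.00095 for Itgb5 to Itgb1, -0.35 to 0.19 for Parva to Parvb and -0.15 to 0.11 for Tln1 to Tln2.

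No paired analysis was possible because the library numbers 1 to 6 are not shared between the groups. With 3 libraries a group, and with FPKM split between annotated forms and forms assembled per library, differences of a size near the replicate SD could not be told from it. Without library 2 the short Itga6 transcript passed (adjusted p = 0.0070 by limma), and without library 5 the Ilk transcript ENSMUST00000163389 did (adjusted p = 0.036 by limma). The Itga6 form was then listed at 0 in the remaining controls, and the Ilk form at 0 in the remaining double mutants. Each met the mean FPKM of 1 through the other group alone, so these p are no evidence that a form was gained or lost.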
